A study of Homo sapiens with 6 samples.

Results

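The genes followed here are 10 targets of NF-κB: the chemokines CXCL8, CXCL1, CXCL2, CXCL3 and CCL20, the cytokines IL6, LIF and IL1A, and the feedback inhibitors NFKBIA and TNFAIP3. They were taken by symbol from each library, where all 10 were found, each as a single entry, among 53826 entries. PK-1 and Panc-1 are established human lines derived from pancreatic ductal adenocarcinoma (PDAC). Cells of each line served as the control or received, for 24 h, either RARγi-1 (LY2955303) or a structurally different antagonist of retinoic acid receptor γ, RARγi-2 (MM11253). The study asked how gene expression responds when RARγ signaling is blocked, and it sequenced 1 library for each of these 6 conditions. According to the study, SMAD4 is altered in PK-1 but not in Panc-1. The doses used for sequencing and the vehicle of the control cells are not given in the sources used here. A treatment label of both RARγi-2 libraries reads RARγi-1, and the libraries were assigned by their titles.

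NF-κB is a family of dimeric transcription factors that is held in the cytoplasm by inhibitors of the IκB family. Signals from tumor necrosis factor, IL-1 or Toll-like receptors activate the IκB kinase (IKK) complex, which marks the inhibitor for degradation and frees the dimer to enter the nucleus. Among its targets are chemokines, cytokines and its own inhibitors, which end the response. In PDAC, neutrophil-attracting CXC chemokines, IL-6 and LIF are known as signals between tumor cells and the stroma.

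The promoter sequences of 9 of the 10 genes were matched in RefSeq (GRCh38.p14), and LIF had no entry. A κB motif, the kind of site that NF-κB binds, was searched on both strands in the 250 bases before the transcription start, in the 8 spellings GGANNTTCC, GGANNTCCC, GGANNCTCC, GGANNCCCC, GGGNNTTCC, GGGNNTCCC, GGGNNCTCC and GGGNNCCCC, where N is any base. A match was found in 8 of the 9 promoters, with IL1A as the exception, and in 27.8% of all 27305 promoters of the table. An AP-1 motif (TGANTCA) was found in CXCL8 and IL1A, and in 6.60% of all promoters. A composite C/EBP-ATF motif (TGATGNAA) was found in none of the 9, and in 3.19% of all promoters. No 2 of these matches overlapped. A match is a description of the letters and says nothing of binding in these cells. The genes were chosen as targets of NF-κB, so their share with a κB match cannot serve as a test.

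The last 150 bases before the start are printed for 4 CXC chemokines, which lie close together in the genome and behaved differently in the cell lines, and for the 2 feedback inhibitors, which stayed within 2-fold of the control in every treated library. They are given 5′ to 3′ on the strand of the gene, with κB matches in capitals.
CXCL8 (chr4:73740419-73740568, plus strand): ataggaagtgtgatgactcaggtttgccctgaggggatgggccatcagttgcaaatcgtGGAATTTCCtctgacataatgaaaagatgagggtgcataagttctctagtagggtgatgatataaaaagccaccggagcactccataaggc
CXCL1 (chr4:73869243-73869392, plus strand): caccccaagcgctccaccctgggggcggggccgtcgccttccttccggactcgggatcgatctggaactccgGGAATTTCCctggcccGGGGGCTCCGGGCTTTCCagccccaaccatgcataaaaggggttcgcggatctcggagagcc
CXCL2 (chr4:74099196-74099345, minus strand): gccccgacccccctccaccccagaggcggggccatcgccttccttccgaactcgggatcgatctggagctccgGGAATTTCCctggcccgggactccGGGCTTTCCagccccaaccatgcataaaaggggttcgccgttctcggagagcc
CXCL3 (chr4:74038690-74038839, minus strand): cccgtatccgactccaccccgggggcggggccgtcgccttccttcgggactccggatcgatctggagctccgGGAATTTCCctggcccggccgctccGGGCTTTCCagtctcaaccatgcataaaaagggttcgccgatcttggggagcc
NFKBIA (chr14:35404750-35404899, minus strand): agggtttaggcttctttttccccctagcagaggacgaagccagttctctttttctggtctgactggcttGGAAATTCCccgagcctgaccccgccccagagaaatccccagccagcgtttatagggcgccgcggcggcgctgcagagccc
TNFAIP3 (chr6:137867109-137867258, plus strand): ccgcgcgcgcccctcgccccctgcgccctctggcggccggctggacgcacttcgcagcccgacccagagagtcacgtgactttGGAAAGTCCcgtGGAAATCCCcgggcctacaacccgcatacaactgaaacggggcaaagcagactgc

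The letters GGAATTTCC stand in the promoters of CXCL8, CXCL1, CXCL2 and CXCL3, between 91 and 69 bases before the start. Over the 150 bases, CXCL1 shared 89.3% of its positions with CXCL2 and 88.7% with CXCL3, but 49.3% with CXCL8. The AP-1 match of CXCL8 lies between 137 and 131 bases before the start. The TNFAIP3 window lies inside the span that RefSeq gives the gene, since the start used is not the first base of that span.

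**Figure D1:**
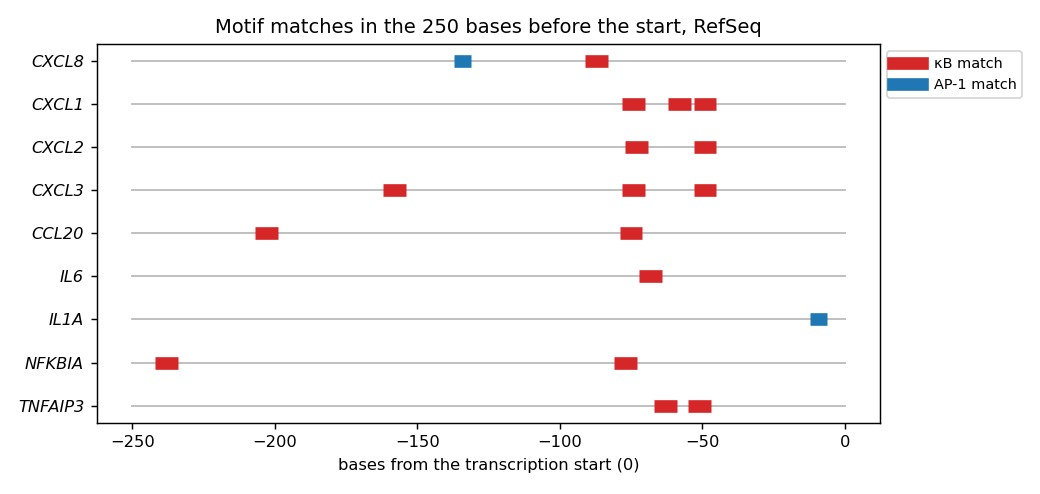
Positions of κB matches (red) and AP-1 matches (blue) in the 250 bases before the transcription start of 9 genes, with the distance from the start in bases on the horizontal axis. Each gene except IL1A has at least 1 κB match, and the κB match nearest to the start lies within 91 bases of it in all 8.

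The authors deposited TPM, the abundance of a transcript corrected for its length and for the size of the library, as log2 values in which everything up to 1 TPM was set to 1 TPM. A value of 1 TPM or less is called the floor here. Of the 10 genes, 6 were above the floor in PK-1 control cells and 5 in Panc-1 control cells. IL6 (chr7:22727200-22731998), the ligand of the IL-6 receptor, was at the floor in all 6 libraries, and CCL20 (chr2:227813842-227817556), the ligand of the chemokine receptor CCR6, was above it only with RARγi-2 in Panc-1, at 1.77 TPM. The genes were therefore not a uniformly expressed group: LIF, IL1A and NFKBIA alone made up between 84.1% and 94.8% of the summed TPM of the genes above the floor in each library. The depth of the libraries is unknown, because TPM keeps no read numbers, and no counting error can be given.

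**Figure D2:**
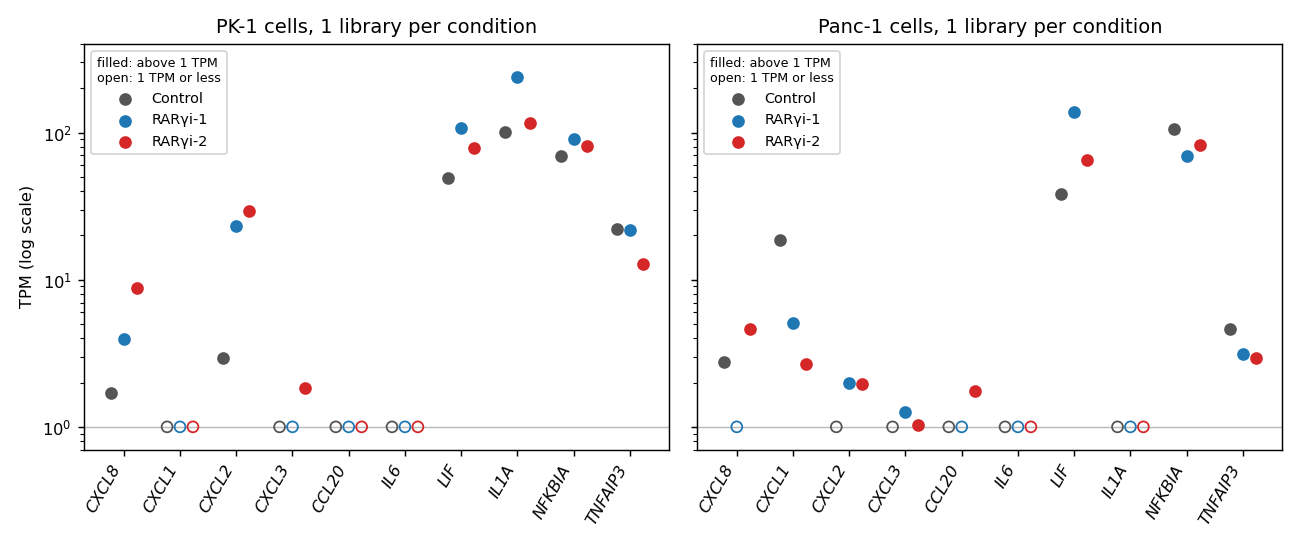
TPM of the 10 genes (vertical axis, log scale) in PK-1 and Panc-1 cells, with 1 point for each library (gray, control; blue, RARγi-1; red, RARγi-2). Open points lie at the floor of 1 TPM or less; IL6 is open throughout, and IL1A is between 101 and 240.3 TPM in PK-1 but open in Panc-1.

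Fold changes compare TPM + 1 of a treated library with TPM + 1 of the control of its line on the log2 scale, and a gene was taken to rise or fall past 2-fold. Because each condition had 1 library, differences could not be checked in replicates and were not tested. How far the treated libraries of a line lay from each other gives a measure of variation. For PK-1, the robust standard deviation of this log2 difference, from the median absolute deviation, was 0.42 over entries reaching 5 to 50 TPM, 0.39 above 50 TPM and 0.36 under 5 TPM. For Panc-1, it was 0.33, 0.28 and 0.30. It also holds real differences between the inhibitors, and it does not contain variation of the control library.

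In PK-1 cells, CXCL2 rose with both inhibitors and CXCL8 with RARγi-2; both chemokines attract neutrophils through the receptor CXCR2. CXCL2 was at 2.96 TPM in the control, 23.1 TPM with RARγi-1 and, with RARγi-2, 29.2 TPM. Both treated libraries were far above the control, with log2 fold changes of 2.60 and 2.93. CXCL8 was at 1.69 TPM in the control, 3.94 TPM with RARγi-1 and, with RARγi-2, 8.77 TPM. Its log2 fold change was 1.86 with RARγi-2 and, within 2-fold, 0.87 with RARγi-1. The latter rests on the pseudocount, which understates changes of low values: without it, the difference was 1.22. CXCL3 was at the floor in the control and with RARγi-1 and at 1.82 TPM with RARγi-2, and CXCL1 was at the floor in all 3 PK-1 libraries.

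In Panc-1 cells, CXCL1, another CXCR2 ligand, fell. It was at 18.6 TPM in the control, 5.04 TPM with RARγi-1 and, with RARγi-2, 2.69 TPM. The log2 fold changes were -1.70 and -2.41, so that the control stood above both treated libraries. CXCL2 was at the floor in the control and at 1.97 TPM with RARγi-1 and, with RARγi-2, 1.95 TPM, which makes it at least 1.97-fold and at least 1.95-fold higher. CXCL8 was at 2.74 TPM in the control, at the floor with RARγi-1 and at 4.65 TPM with RARγi-2. It was thus at least 2.74-fold lower with RARγi-1, although its log2 fold change with the pseudocount was -0.90, and it was 0.59 with RARγi-2. CXCL8 lay on opposite sides of the control with the inhibitors in this line. CXCL3 was at 1.25 TPM with RARγi-1 and, with RARγi-2, 1.03 TPM, just above the floor at which the control lay.

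The 4 CXC chemokine genes lie on chromosome 4 within 359 kb, from CXCL8 (chr4:73740569-73743716) over CXCL1 (chr4:73869393-73871308) and CXCL3 (chr4:74036589-74038689) to CXCL2 (chr4:74097040-74099195). RefSeq places 9 protein-coding genes that are in the files in this stretch, which was chosen after the values had been seen. The other 5, CXCL6, PF4V1, PF4, PPBP and CXCL5, were at the floor in all 6 libraries. The chemokine that stood above 10 TPM differed between the lines, with CXCL2 in treated PK-1 cells and CXCL1 in Panc-1 control cells. The longest protein-coding transcripts of CXCL1 and CXCL2 in GENCODE 29 were 80.8% identical, those of CXCL1 and CXCL3 74.5% and those of CXCL2 and CXCL3 69.3%. Reads from such stretches may have been split among the genes, and the counting method is not given in the sources used here.

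LIF and IL1A were the abundant cytokines. LIF (chr22:30240453-30246759), a cytokine of the IL-6 family that signals through LIFR and gp130 (IL6ST), was higher in each treated library than in its control. In PK-1 it was at 49.2 TPM in the control, 107 TPM with RARγi-1 and, with RARγi-2, 79.1 TPM. Its log2 fold changes there were 1.11 and 0.67. After rescaling the libraries by median ratios, which shifts all log2 fold changes of PK-1 RARγi-1 by -0.13, LIF was at 0.98 there and no longer past 2-fold. In Panc-1 it was at 38.1 TPM in the control, 139 TPM with RARγi-1 and, with RARγi-2, 64.9 TPM. The log2 fold changes were 1.84 and 0.75, so that, without rescaling, LIF rose with RARγi-1 in both lines and stayed within 2-fold with RARγi-2. Among all entries of a library, LIF stood at rank 4045 by TPM in Panc-1 control cells and at rank 1191 with RARγi-1.

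IL1A, an alarmin that signals through IL1R1, lies at chr2:112773925-112784493 and was above the floor in PK-1 only. It was at 101 TPM in the control, 240.3 TPM with RARγi-1 and, with RARγi-2, 117 TPM. It rose with RARγi-1, at a log2 fold change of 1.25, and was at 0.21 with RARγi-2, less than the variation between the treated libraries. In Panc-1 it was at the floor in all 3 libraries. Between the control libraries, IL1A was at least 101-fold higher in PK-1.

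The feedback inhibitors stayed within 2-fold in all 4 comparisons. NFKBIA (chr14:35401513-35404749) encodes IκBα, the inhibitor that NF-κB itself induces. It was at 69.8 TPM in PK-1 control cells, 90.3 TPM with RARγi-1 and, with RARγi-2, 81.0 TPM. The log2 fold changes were 0.37 and 0.21, both below the 0.39 of the variation at this level. In Panc-1 it was at 105 TPM in the control, 69.6 TPM with RARγi-1 and, with RARγi-2, 81.8 TPM. The log2 fold changes were -0.59 and -0.36, both larger in size than 0.28. That measure does not contain variation of the control library, which both comparisons share. The treated libraries thus stood above the control in PK-1 and below it in Panc-1.

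TNFAIP3 (chr6:137866349-137883312) encodes A20, a ubiquitin-editing enzyme that restrains signaling upstream of IKK. It was at 22.1 TPM in PK-1 control cells, 21.6 TPM with RARγi-1 and, with RARγi-2, 12.8 TPM. The log2 fold changes were -0.03 and -0.75. In Panc-1 it was at 4.62 TPM in the control, 3.12 TPM with RARγi-1 and, with RARγi-2, 2.95 TPM. The log2 fold changes were -0.45 and -0.51. All 4 treated libraries were below their control, in PK-1 RARγi-1 by less than the variation. In PK-1, both inhibitor genes thus stayed within 2-fold of the control in the libraries in which CXCL2 rose.

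**Figure D3:**
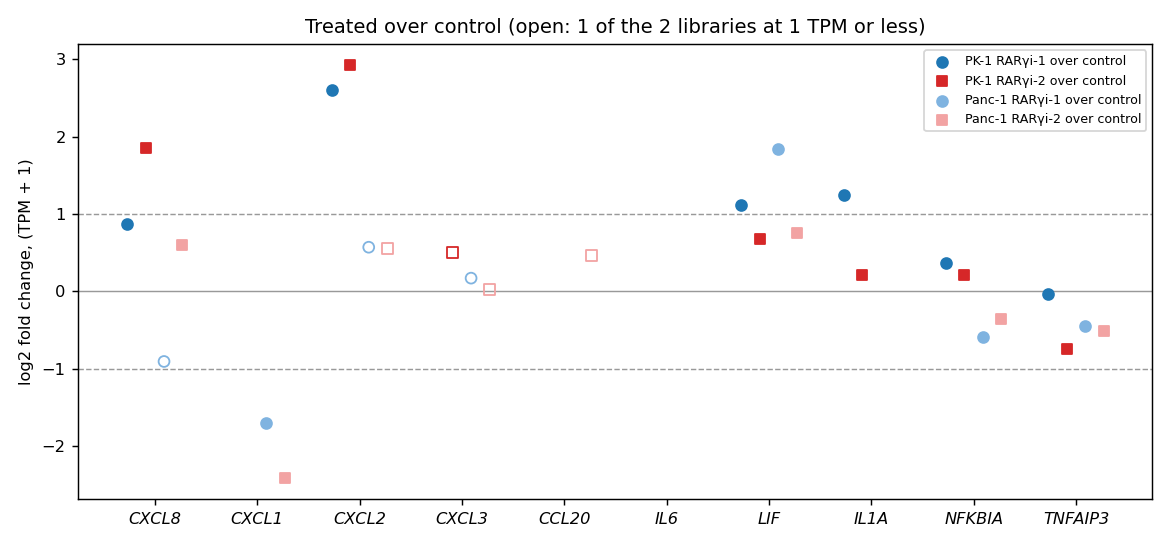
Log2 fold changes of (TPM + 1) for the 10 genes in the 4 comparisons of a treated library with the control of its line; the dashed lines mark 2-fold. Open points have 1 of the 2 libraries at the floor, and genes with both at the floor have no point; CXCL2 stands highest in PK-1, at 2.60 and 2.93, and CXCL1 lowest in Panc-1, at -1.70 and -2.41.

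Counted over the 10 genes, 3 rose and 0 fell with RARγi-1 in PK-1, where 9.25% of all 13965 entries above the floor rose and 4.96% fell. With RARγi-2 in PK-1, 2 rose and 0 fell, against 12.1% and 12.6% of all entries. With RARγi-1 in Panc-1, 1 rose and 1 fell, against 7.4% and 6.03%. With RARγi-2 in Panc-1, 0 rose and 1 fell, against 8.5% and 11.2%. The genes at the floor in both libraries of a comparison numbered 4, 3, 3 and 2 in this order. Over all 10 genes, with those at the floor at 0, the median log2 fold changes were 0.18, 0.21, 0.00 and 0.01, and over all entries above the floor they were 0.15, 0.03, 0.09 and -0.03. For the genes above the floor alone, the medians were 0.99, 0.50, -0.45 and 0.25, over 6, 7, 7 and 8 genes. The last of them turned to -0.36 when a minimum of 5 TPM left 3 genes. The changes were uneven, and single genes stood far out in opposite directions. The comparisons within a line share a control library.

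**Figure D4:**
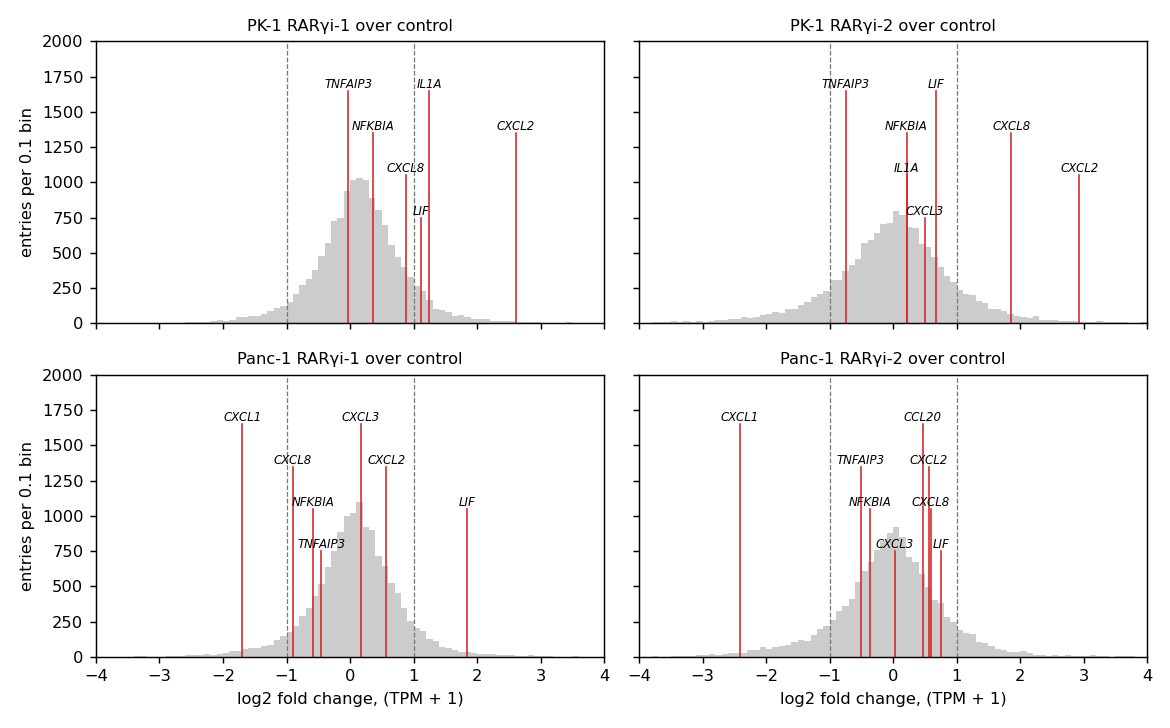
Number of entries in each bin of 0.1 of log2 fold change of (TPM + 1), for all entries above the floor in at least 1 of the 2 libraries (gray, drawn from -4 to 4), with the genes above the floor marked in red; dashed lines mark 2-fold. CXCL2 stands furthest to the right of the genes in PK-1, at 2.60 and 2.93, and CXCL1 furthest to the left in Panc-1, at -1.70 and -2.41, and NFKBIA and TNFAIP3 stand inside the dashed lines in each panel.

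The inhibitors were set side by side within each line, at doses that are not stated for the sequencing. In PK-1, IL1A was lower with RARγi-2 than with RARγi-1, at a log2 difference of -1.03, and no gene was past 2-fold the other way, against 4.48% and 1.36% of all entries. In Panc-1, LIF was lower with RARγi-2, at -1.09, and CXCL8 was higher, being at least 4.65-fold above the floor at which the RARγi-1 library lay, against 2.14% and 0.724% of all entries. Rescaling shifts these differences by 0.17 in PK-1 and by 0.11 for Panc-1, and after it neither IL1A, at -0.87, nor LIF, at -0.98, was past 2-fold. In PK-1, CXCL8 had a difference of 0.98, and it was past 2-fold after rescaling or without a pseudocount, at 1.15 in the latter case.

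Between the control cells, 2 of the 10 genes, IL1A and TNFAIP3, were higher in PK-1 past 2-fold and 1, CXCL1, was at least 18.6-fold higher in Panc-1. CXCL2, at 2.96 TPM in PK-1 and at the floor in Panc-1, was at least 2.96-fold higher in PK-1, although its log2 difference with the pseudocount was 0.99, so that 3 genes were higher in PK-1 with a pseudocount of 0 or 0.1. TNFAIP3 had a log2 difference of 2.04 for PK-1 over Panc-1. Higher in PK-1 by more than 2-fold were 14.6% of all 14618 entries and lower 15.7%. LIF, at 0.36, and NFKBIA, at -0.58, were within 2-fold.

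The 4 log2 fold changes of CXCL8, which had the widest range of the 10 genes, at 2.76, were compared with those of 10629 other entries with 10 TPM or more in some library. CXCL8 itself reached at most 8.77 TPM and was at the floor with RARγi-1 in Panc-1. Its value there, the range and the distances thus depend on the floor. The nearest by Euclidean distance over these 4 comparisons of 6 libraries were RAB11B-AS1, at 0.54, MAFK, which encodes a small MAF transcription factor, at 0.81, and KLHL21, which encodes an adaptor of a CUL3 ubiquitin ligase, at 0.85. MAFK was at 34.0, 97.3 and 125 TPM in PK-1 and at 102, 78.1 and 152 TPM in Panc-1 (control, RARγi-1 and RARγi-2). RAB11B-AS1 is antisense to another gene, and whether its reads were counted by strand is not stated.

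Other chemokines were mostly at the floor. Of 14 further chemokine genes, 12 were at the floor in both libraries of each PK-1 comparison and 9 in those of Panc-1. CCL2, which attracts monocytes, was at 112 TPM in Panc-1 control cells, 6.79 TPM with RARγi-1 and, with RARγi-2, 2.31 TPM. It fell with both, at log2 fold changes of -3.85 and -5.09, and it was at the floor in PK-1. No other gene of this list was past 2-fold in the same direction with both inhibitors of a line.

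Of 14 further cytokine and growth factor genes, PK-1 had 10 above the floor and Panc-1 had 7. With RARγi-1 in PK-1, 4 rose and 0 fell (all entries, 9.25% and 4.96%), and 7 rose and 1 fell with RARγi-2 (all entries, 12.1% and 12.6%). In Panc-1, 2 rose and 2 fell with RARγi-1 (7.4% and 6.03%), and 3 rose and 2 fell with RARγi-2 (8.5% and 11.2%). The medians of those above the floor were 0.66, 1.39, 0.51 and 0.41. VEGFA, the main growth factor of blood vessels, rose in all 4 comparisons, with log2 fold changes of 2.66 and 2.40 for PK-1 and of 2.42 and 2.13 for Panc-1. In PK-1, IL11, a further cytokine of the IL-6 family, rose from 1.44 TPM to 15.9 and 18.7 TPM, and it was at 8.97, 6.64 and 5.27 TPM in Panc-1. IL23A rose with both inhibitors in PK-1, at 1.20 and 1.12, from a low 1.37 TPM to 4.44 and 4.16 TPM. IL32 rose with both in Panc-1, at 1.64 and 1.37. CSF1, the growth factor of macrophages, fell in Panc-1 from 54.6 TPM to 9.33 and 5.04 TPM, and IL18 fell there from 130.02 TPM to 44.3 and 53.3 TPM.

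Of the 5 genes for NF-κB subunits, 1 rose and 0 fell with RARγi-1 in PK-1 (all entries, 9.25% and 4.96%). With RARγi-2 there, 0 rose and 1 fell (12.1% and 12.6%). In Panc-1, 0 rose and 0 fell with RARγi-1 (7.4% and 6.03%) and with RARγi-2 (8.5% and 11.2%). The medians were 0.49, 0.49, -0.07 and -0.29. NFKB2 rose with RARγi-1 in PK-1, at 1.11, and REL fell with RARγi-2 in PK-1, at -1.09. REL was at the floor in Panc-1. RELA, a subunit that activates transcription, had log2 fold changes of 0.49 and 0.82 for PK-1 and of 0.25 and 0.54 for Panc-1. Those of NFKB1 were -0.51 and -0.92 for PK-1 and, for Panc-1, -0.48 and -0.51. Of these 8 values, all but that of RELA with RARγi-1 in Panc-1 were larger in size than the variation at their level. The share of all entries past this variation, which does not contain that of the control library, was not counted. The comparison thus does not set RELA and NFKB1 apart from other genes. Of 16 genes for IKK subunits and upstream adaptors, 0 rose and 0 fell with RARγi-1 in PK-1 (all entries, 9.25% and 4.96%) and 2 rose and 2 fell with RARγi-2 (12.1% and 12.6%). In Panc-1, 0 rose and 1 fell with RARγi-1 (7.4% and 6.03%), and 1 rose and 3 fell with RARγi-2 (8.5% and 11.2%). MAP3K14, which encodes NIK, the kinase of the non-canonical pathway, fell in Panc-1 from 70.5 TPM to 15.5 and 13.7 TPM, and had log2 fold changes of -0.54 and -1.22 in PK-1.

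Among 13 further inhibitors and feedback genes, 1 rose and 0 fell with RARγi-1 in PK-1 (all entries, 9.25% and 4.96%) and 0 rose and 0 fell with RARγi-2 (12.1% and 12.6%). In Panc-1, 1 rose and 3 fell with RARγi-1 (7.4% and 6.03%) and 0 rose and 3 fell with RARγi-2 (8.5% and 11.2%). All 13 were above the floor, with medians of 0.52, 0.41, 0.05 and -0.02. The 3 that fell with both inhibitors in Panc-1 were TNFAIP2, at -1.63 and -2.38, BIRC3, at -1.17 and -1.74, and BCL3, at -1.33 and -1.74. BIRC3 encodes a ubiquitin ligase of the tumor necrosis factor receptor complex, and BCL3 an atypical IκB protein. In PK-1 none of them was past 2-fold. Of 17 receptor and decoy genes, TNFRSF1B fell with both inhibitors in Panc-1, at -1.58 and -2.03, and IL6R rose with RARγi-2 in PK-1, at 1.38. CXCR2, the receptor of the CXC chemokines above, was at the floor in all 6 libraries.

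Of 20 further NF-κB target genes, 16 were above the floor in each comparison. Of these, 6 rose and 1 fell with RARγi-1 in PK-1 (all entries, 9.25% and 4.96%), and 5 rose and 2 fell with RARγi-2 (12.1% and 12.6%). In Panc-1, 3 rose and 1 fell with RARγi-1 (7.4% and 6.03%) and 3 rose and 4 fell with RARγi-2 (8.5% and 11.2%). Their medians were 0.63, 0.47, 0.03 and -0.38. LCN2, which encodes the iron-trapping protein lipocalin-2, rose in PK-1 from 158 TPM to 803 and 4016 TPM and, in Panc-1, from the floor to 18.1 and 39.8 TPM. RND1 rose in all 4 comparisons. IER3, an immediate-early gene, rose in PK-1, at 2.28 and 2.41, and GADD45B rose with both inhibitors in Panc-1, at 1.19 and 1.11. CD83 fell in all 4 comparisons, at -1.14 and -1.15 for PK-1 and, for Panc-1, at -1.39 and -1.91. In PK-1 it was low, at 3.44 TPM in the control, 1.02 TPM with RARγi-1 and at the floor with RARγi-2. These genes have other known activators besides NF-κB.

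ZFP36 encodes tristetraprolin, which binds AU-rich elements and destabilizes cytokine transcripts. It was at 57.7, 149 and 191 TPM in PK-1 and at 267, 586 and 536 TPM in Panc-1 (control, RARγi-1 and RARγi-2). It was past 2-fold in all 4 comparisons, though barely so with RARγi-2 in Panc-1. Of the 8 genes for such decay and stabilizing factors, it alone rose in each comparison (all entries, 9.25%, 12.1%, 7.4% and 8.5%). With RARγi-2 in PK-1, 4 fell (all entries, 12.6%), and 0 fell in the other comparisons (4.96%, 6.03% and 11.2%). Of 10 genes of IL-6 and LIF signaling, 2 rose and 0 fell with RARγi-1 in PK-1 (all entries, 9.25% and 4.96%). With RARγi-2 there, 2 rose and 0 fell (12.1% and 12.6%). In Panc-1, 1 rose and 0 fell with RARγi-1 (7.4% and 6.03%). With RARγi-2 there, 1 rose and 2 fell (8.5% and 11.2%). SOCS1, a feedback inhibitor of JAK kinases, rose in all 4 comparisons, at 1.19 and 1.70 for PK-1 and at 2.55 and 1.71 for Panc-1. PIM1 rose with both inhibitors in PK-1, at 1.20 and 1.08. The 2 that fell with RARγi-2 in Panc-1 were STAT3, the main transducer of gp130 signals, at -1.05, and SOCS2, at -1.14. SOCS3, the feedback gene most tied to gp130, had log2 fold changes of 0.77, 0.56, -0.30 and -0.99 in the same order of comparisons and was not past 2-fold.

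Of 17 genes for factors of the stress and growth response that act on cytokine promoters, 11 rose with RARγi-1 and 11 with RARγi-2 in PK-1, and 7 and 10 did in Panc-1, and 0 fell. Over all entries above the floor, the shares that rose were the 9.25%, 12.1%, 7.4% and 8.5% given above. The study itself reported that pathways of the response to unfolded proteins, such as that of ATF4, rose in these cells. The list was chosen with earlier results of these data known, so its counts cannot serve as a test. The stress factors ATF3 and DDIT3 and the C/EBP genes CEBPB and CEBPG rose in all 4 comparisons. ATF3 was at 8.03, 48.3 and 157 TPM in PK-1 and at 5.38, 129 and 469 TPM in Panc-1 (control, RARγi-1 and RARγi-2). CEBPB was at 86.0, 340.04 and 492 TPM in PK-1 and at 37.5, 224 and 199.7 TPM in Panc-1. Whether any of these changes bears on the chemokine genes was not tested.

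**Figure D5:**
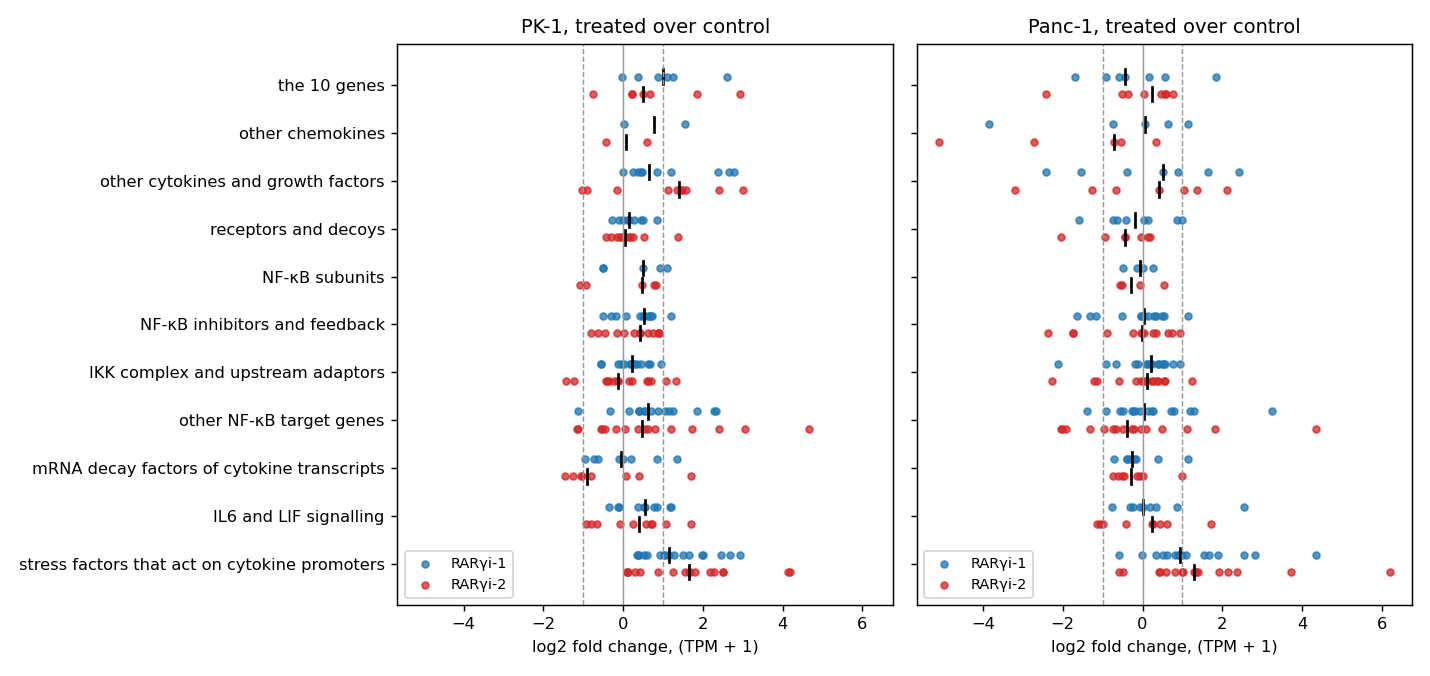
Log2 fold changes of (TPM + 1) of the genes above the floor in 11 lists, with PK-1 in the left and Panc-1 in the right panel, 1 point for each gene (blue, RARγi-1; red, RARγi-2), with short black lines at the medians and dashed lines at 2-fold. The list of stress and growth factors lies furthest to the right, with medians of 1.16, 1.67, 0.94 and 1.30 in the order of comparisons used above, and the NF-κB subunits have medians of 0.49, 0.49, -0.07 and -0.29.

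Markers of cell types were read beside these values. Of 7 epithelial markers, 7 were above the floor in each PK-1 library and 6 in each Panc-1 library, where CDH1 was at the floor. Their summed TPM lay between 14103 and 22913 in PK-1 and, for Panc-1, between 1567 and 8480.5. With both inhibitors, KRT8, KRT18 and KRT19 fell in Panc-1, and KRT7 fell in PK-1. CDH1 was at 0.66 with RARγi-1 in PK-1 and rose there with RARγi-2, at 1.17. CLDN4 was within 2-fold in all 4 comparisons, at 0.52, 0.62, 0.58 and 0.40, as was EPCAM, at -0.07, -0.22, 0.51 and -0.50. All 5 endothelial markers were at the floor in all 6 libraries. Of 8 fibroblast markers only COL1A1 was above the floor, at 3.21, 11.5 and 13.4 TPM in PK-1 and at 52.4, 4.65 and 2.10 TPM in Panc-1 (control, RARγi-1 and RARγi-2). Of 8 leukocyte markers, CD68, a lysosomal protein gene that other cells also express, alone was above 10 TPM. It was at 19.8 TPM in PK-1 control cells and rose there, at 2.20 and 1.61, and it was at 244, 276 and 238 TPM in Panc-1. PTPRC, CD3E and MS4A1 were at the floor in all 6. COL1A1 and CXCL1 fell together in Panc-1, and the part of such genes in the chemokine values was not tested. In bulk RNA, fewer cells that express a gene and less RNA per cell cannot be told apart.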

How the data were processed

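RNA-seq of PK-1 and Panc-1 cells gave 6 libraries, 1 for each condition, made from mRNA with a stranded kit. The authors deposited log2 values of TPM for 53826 entries per library, with values under 1 TPM raised to 1 TPM, as read from the values. The submitters' processing notes name hg38; the aligner, counting method and annotation are not given in the sources used here. Between 74.6% and 75.6% of entries per library lay at this floor. The depth is unknown.

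The log2 values were turned into linear TPM, and a pseudocount of 1 TPM was added before fold changes were computed. Entries above the floor in at least 1 of the 2 libraries compared were counted past 2-fold. The genes and lists were chosen with earlier results of these data known. All 10 genes are described. Of the other lists, genes past 2-fold in the same direction with both inhibitors of a line are named, up to 4 per list and direction by the mean of the 4 log2 fold changes, and others by name were chosen after their values were seen. Alternatives were pseudocounts of 0 and 0.1, a minimum of 5 TPM, rescaling by median ratios over 11269 entries, sums of repeated rows, and thresholds of 1.5-fold and 3-fold. The fold change step was tested on simulated data. Promoter letters are from RefSeq (GRCh38.p14) and transcripts from GENCODE 29, both on the build of the files. Python 3.11.15 with pandas 2.3.3 was used.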

Additional observations from a re-analysis of the deposited data

Results flagged for a closer look

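NFKBIA stood above the control with both inhibitors in PK-1, with log2 fold changes that were 0.37 for RARγi-1 and 0.21 for RARγi-2, and below it with both in Panc-1, at -0.59 and -0.36. The same opposite signs were seen for IL11, at 2.79 and 3.01 for PK-1 and -0.38 and -0.67 for Panc-1, and for BCL3, at 0.55 and 0.41 for PK-1 and -1.33 and -1.74 for Panc-1. BIRC3 was at 0.49 and 0.029 for PK-1 and, for Panc-1, at -1.17 and -1.74. COL1A1 was at 1.57 and 1.78 for PK-1 and, for Panc-1, at -3.24 and -4.10. In each case, every treated library of a line lay on the same side of its control and those of the other line on the opposite side. Some PK-1 values were smaller than the variation between the treated libraries at their level. These were NFKBIA with both inhibitors (variation 0.39) and, with RARγi-2, BIRC3 (0.36) and BCL3 (0.42). The difference between the lines was not tested, because there is 1 library per condition, and both comparisons of a line share a control. Further listed genes, among them NFKB2, IL6R, SOCS3, EFNA1 and JUNB, were also above the control in PK-1 and below it in Panc-1 with both inhibitors. Not all of their values were larger in size than the variation. The pattern is thus not particular to the genes described here, and its share among all entries was not counted.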

How the results depend on the processing

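No alternative could turn the direction of a gene past 2-fold. Pseudocounts, the minimum and sums keep the sign here, and rescaling shifts log2 fold changes by at most 0.17. Of 231 values of single genes under the alternatives, 199 moved by less than the spread per library, on the log2 scale 0.29 for PK-1 and 0.23 for Panc-1. The other 32 all moved with a pseudocount of 0 or 0.1, 16 with each, where 34 with each did not. The 199 include 50 for sums of repeated rows and 31 for the minimum of 5 TPM. Neither setting changes the value of a gene, so these could not move. A further 50 are for rescaling, whose shifts are smaller than the spread per library, so these could not move either. With RARγi-1 in PK-1, 4 genes rose without a pseudocount, with CXCL8 added, and 2 after rescaling, with LIF lost. Summing repeated rows moved nothing, because none of the 10 symbols occurs more than once. With a pseudocount of 0 or of 0.1, the number that fell with RARγi-1 in Panc-1 was 2, with CXCL8 added, and, in PK-1, the number higher with RARγi-2 than with RARγi-1 was 1, again CXCL8. With a minimum of 5 TPM, the median for Panc-1 with RARγi-2 was -0.36, that of RARγi-2 over RARγi-1 in Panc-1 was -0.71, and the number higher in the latter was 0, since 3 genes were left. After rescaling, RARγi-2 over RARγi-1 had 1 gene higher and 0 lower in PK-1 and 0 lower in Panc-1. At 1.5-fold, 1 gene was lower with RARγi-2 in PK-1, 3 were lower with RARγi-1 and 2 higher with RARγi-2 in Panc-1, and RARγi-2 over RARγi-1 had 1 higher and 2 lower in PK-1 and 2 lower in Panc-1. At 3-fold, 1 gene was higher with RARγi-1 in PK-1, and RARγi-2 over RARγi-1 had 0 lower in PK-1 and 0 higher and 0 lower in Panc-1. No paired analysis was possible because each condition has 1 library with no replicate number, and for the same reason no library could be left out. What TPM cannot show is the number of reads behind the values of 1 to 5 TPM that most of these chemokines had.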

Other observations

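The control cells of the lines differed in further NF-κB genes, which were chosen after their values were seen. IL1B, a cytokine with the same receptor as IL1A, was at 239 TPM in PK-1 control cells and at the floor in all of Panc-1. BCL2A1, a survival gene of the BCL2 family, was at 62.7 TPM in Panc-1 control cells and at the floor in all PK-1 libraries, and BIRC3 was at 2.64 TPM in PK-1 against 69.1 TPM in Panc-1. The adhesion gene ICAM1 was at 9.96 TPM in PK-1 against 140.2 TPM in Panc-1. LTBR, a receptor that feeds the non-canonical pathway, was at 203 TPM in PK-1 control cells while Panc-1 stayed at the floor throughout, and the related receptor gene TNFRSF1A was at 168 and 165 TPM. MYD88, the adaptor of IL-1 and Toll-like receptors, was at the floor in PK-1 and at 20.1 TPM in Panc-1.

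Within the same lists, PLAU and IL1B, and others such as ICAM1 in PK-1, differed more between the treated libraries of a line than between either and the control. This holds for any gene whose treated libraries lie on opposite sides of the control. PLAU, which encodes urokinase, was at 315, 754 and 219 TPM in PK-1 and at 578, 678 and 139 TPM in Panc-1 (control, RARγi-1 and RARγi-2). IL1B was at 239, 310.3 and 117 TPM in PK-1. CSF2, a growth factor of myeloid cells, was at 4.17, 26.0 and 13.1 TPM in PK-1, past 2-fold with both inhibitors, and at the floor in Panc-1.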
